A study of Homo sapiens with 6 samples.

Results

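The hnRNP and RBM genes encode 2 large families of RNA-binding proteins, and 61 of them, 23 named HNRNP and 38 named RBM, were followed in human kidney tubular cells with and without SIRT4 overexpression. Members were chosen by symbol (HNRNP followed by a letter, RBMX, or RBM followed by a number), leaving out antisense and divergent transcripts, and by at least 10 counts in at least 3 samples. Of 65 matching symbols among the 38100 genes of the count table, 4 (HNRNPCL1 to HNRNPCL4) had no count in any sample, and the 61 others met the rule. All 61 entered the test, which covered 17720 genes.

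The study asked how SIRT4, a sirtuin deacylase best known from mitochondria, acts on gene expression and splicing in renal fibrosis. HK2 cells, an immortalized human proximal tubule line labelled wild type, carried a control adenovirus with an empty vector (AdCtrl, n = 3) or an adenovirus for SIRT4 (AdSirt4, n = 3). Both groups were stimulated with TGF-β1, so no sample lacked TGF-β1 and none lacked virus. mRNA was purified with poly-T beads and sequenced. The dose and duration of the stimulation in these 6 samples are not given in the labels. The cell line field of the labels carries a different number in each sample, while all 6 titles name HK2. The study describes n in its cell culture experiments as technical replicates, so p-values here measure only the spread between these samples.

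hnRNPs coat nascent transcripts. They influence which splice sites are used, and many shuttle to the cytoplasm, where they affect mRNA stability, localization and translation. RBM genes share a name that refers to an RNA-binding motif rather than a single function. Their products include spliceosome components, alternative splicing regulators, subunits of the exon junction complex, of the m6A writer and of nuclear decay complexes, and ribosome assembly factors. Several splicing members, among them RBM17 and RBM39, carry a U2AF homology motif, a protein-binding domain first described in the U2AF subunits that recognise the 3′ splice site.

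The totals were 53677241, 42102861 and 50190728 counts in AdCtrl and 41537353, 85684748 and 80040053 counts in AdSirt4. SIRT4 was measured at 0.573, 1.11 and 1.11 CPM (the gene's count relative to the TMM-scaled library total) in AdCtrl and at 51.2, 92.7 and 84.0 CPM in AdSirt4, so every library matched its label. Of 15 genes chosen as markers of the tubular line, 10 averaged at least 1 CPM, and CDH1, ANPEP, AQP1, LRP2 and CUBN stayed below it. The summed tubular markers reached 2820 to 2905 CPM in AdCtrl and 2675 to 3067 CPM in AdSirt4. Fibroblast markers summed to 16.9 to 18.6 and 15.5 to 23.1 CPM. Of these, LUM averaged at least 1 CPM, and PDGFRA, PDGFRB and DCN were below 1 CPM. Immune markers, of which only CD14 averaged at least 1 CPM, summed to under 2.96 CPM and endothelial markers to under 0.505 CPM in every sample. AdSirt4 replicate 1 stood apart. Its counts differed from those of AdSirt4 replicates 2 and 3 by a chi-square per gene of 192 and 237, against 9.99 to 24.7 for the other pairs of replicates. AdSirt4 replicate 1 also held the fewest detected genes (20987, against 22332 to 25974) and had the smallest total. AdCtrl replicate 2, with a similar total, held 22387. Where a log2 fold change is given for a single gene, it is therefore given with and without AdSirt4 replicate 1.

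The members are shown first by their level per gene length, in FPKM, the fragment count scaled to gene length and library total. In bulk samples, the number of cells and the RNA per cell cannot be told apart. The median over the 23 hnRNP genes was 82.0 FPKM, over the 38 RBM genes 9.75 FPKM and over all genes tested 4.43 FPKM. HNRNPA1 and HNRNPA2B1, core A/B proteins of the hnRNP particle that regulate splicing and mRNA transport, led with mean levels of 331 and 320 FPKM. HNRNPK, a KH-domain protein that binds C-rich RNA, followed at 291 FPKM, HNRNPC, which binds uridine tracts in nascent RNA, at 193 FPKM, and HNRNPF, which binds G-rich runs, at 169 FPKM. RBMX, also known as hnRNP G, had the highest level among the RBM genes at 122 FPKM.

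**Figure D1:**
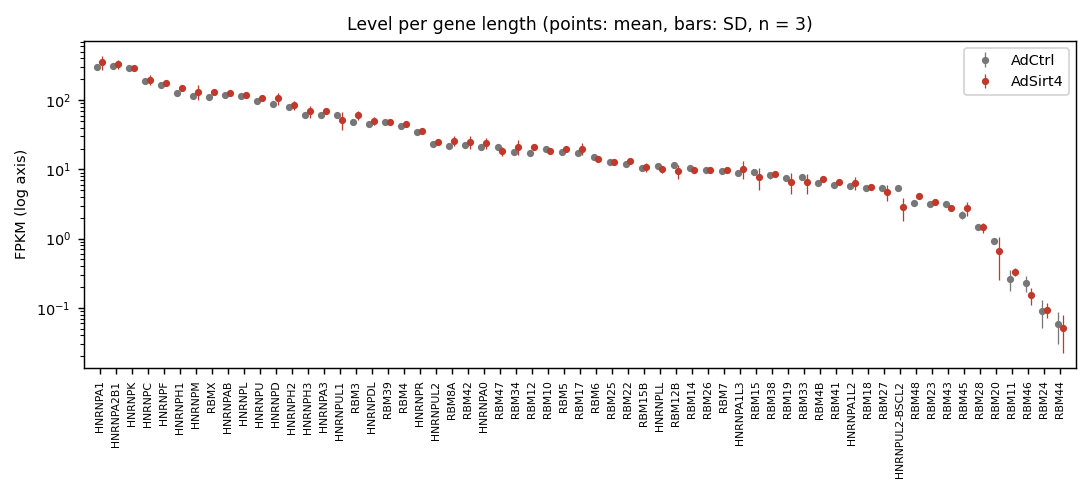
FPKM (log axis) of the 61 members, ordered by mean level, as the mean of 3 AdCtrl samples (grey) and of 3 AdSirt4 samples (red) with the SD. HNRNPA1 leads at 331 FPKM, RBM44 is lowest at 0.0549 FPKM, and the order of neighbouring genes is often within the SD.

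At the low end, 4 members averaged under 1 CPM. RBM24, a regulator of muscle splicing and mRNA stability, had 10 to 31 counts per sample. RBM44, known from germ cells, had 5 to 32 counts, RBM46, a germ cell regulator of mRNA stability, 16 to 64, and RBM11, a tissue-restricted splicing regulator, 24 to 70. These counts are not scaled to the library totals. At such counts the sampling error is large, and a difference between the groups was not detectable for these 4 genes at this depth. RBM20, the titin splicing factor of heart muscle, averaged 0.795 FPKM but had 149 to 685 counts. It had 7.45, 8.57 and 8.23 CPM in AdCtrl and 3.82, 7.95 and 8.02 CPM in AdSirt4, a low value in AdSirt4 replicate 1 alone.

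With all 6 samples, edgeR's quasi-likelihood test with Benjamini-Hochberg adjustment called no member at 0.05, against 0.0113% of all genes tested (2 genes). At an unadjusted p under 0.05 there were 4 members, against 7.93% of all genes: RBM12, RBM4B and RBM3 with higher values in AdSirt4 (all genes in that direction: 4.43%) and HNRNPUL2-BSCL2 with lower values (3.5%). DESeq2 on the same counts passed 2 of these, RBM12 (adjusted p = 0.00412) and HNRNPUL2-BSCL2 (adjusted p = 0.0394), against 1.2% of all genes. limma voom with sample quality weights passed both, RBM4B and HNRNPLL, against 9.51% of all genes, and put 15 members at an unadjusted p under 0.05, against 27.3%. With the replicate number as a block in edgeR, the 4 members at an unadjusted p under 0.05 became 2, against 7.2% of all genes: RBM12 (edgeR unadjusted p = 0.0176) and HNRNPUL2-BSCL2 (edgeR unadjusted p = 0.0101). The block left no member past the adjusted threshold. With each library's trend over gene length removed, 10 members were under an unadjusted 0.05, against 13.9% of all genes, and 12 with the block as well, also against 13.9%. The p-values of single values from the exact permutation test cannot fall below 0.1 with 3 samples against 3.

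The log2 fold changes of AdSirt4 over AdCtrl were above 0 in 45 members and below 0 in 16, against 53.4% above 0 among all genes, with a median of 0.12 over members and 0.02 over all genes. Among hnRNP genes 20 of 23 were above 0 (median 0.14), and among RBM genes 25 of 38 (median 0.08). The tilt of the hnRNP genes rested on AdSirt4 replicate 1. Without it, 36 members were above 0 and 25 below, the median was 0.02 (all genes −0.003, with 49.4% above 0), and the hnRNP genes divided into 11 above and 12 below with a median of −0.003. The RBM genes still had 25 above and 13 below, with a median of 0.04 in place of 0.08. limma voom with quality weights, which gives an outlying library less weight, put 39 members above 0, with a median of 0.03. Over all genes it put 8867 of 17720 above 0, with a median of 0.0002. On log2(FPKM + 1), 43 members were above 0, with a median of 0.07, against 8254 of 17720 genes, with a median of −0.009. Of the 61 members, 17 changed sign when this sample was left out, 9 of them hnRNP genes, and none of the 17 was further than 0.08 from 0 afterwards.

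**Figure D2:**
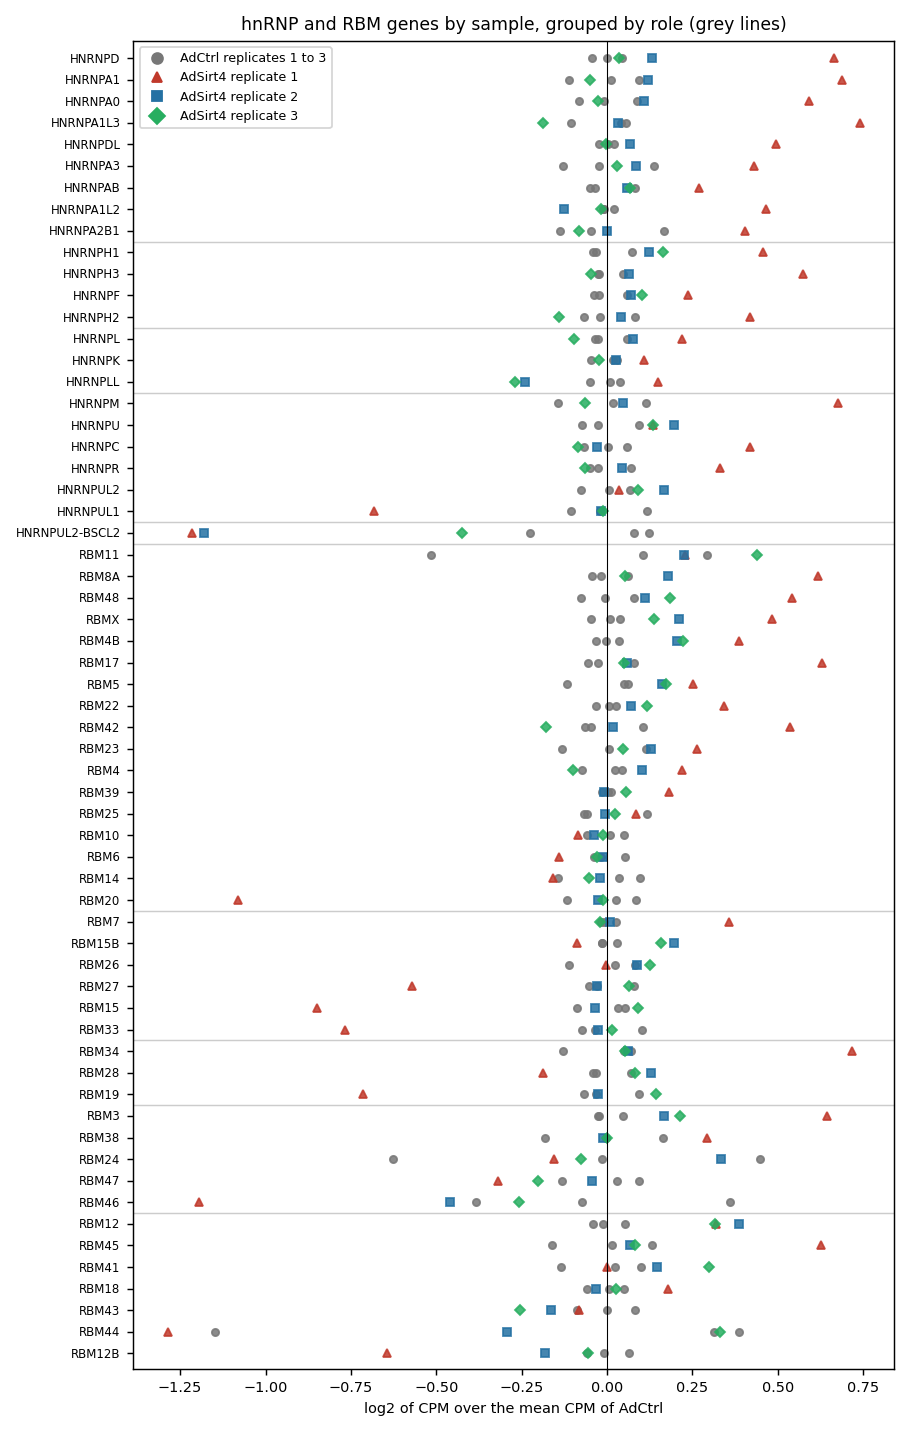
Each sample's CPM of the 61 members, as log2 of its ratio to the AdCtrl mean, grouped by role. The red triangles of AdSirt4 replicate 1 lie to the right of the other 5 samples in 36 members and to the left in 16, whereas RBM12 is shifted alike in all 3 AdSirt4 samples.

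AdSirt4 replicate 1 exceeded the 5 other samples in 36 members (59.0%, against 36.6% of all genes) and was below all of them in 16 (26.2%, against 36.6%). The hnRNP genes were higher in this library in 19 of 23 cases, the RBM genes in 17 of 38. On the log2 CPM scale, replicate 1 differed from the mean of replicates 2 and 3 by a median of 0.40 over the hnRNP genes and 0.02 over the RBM genes, whereas replicates 2 and 3 differed from AdCtrl by 0.002 and 0.06. The summed level of the hnRNP genes was 2357, 2353 and 2301 FPKM in AdCtrl and 2825, 2429 and 2340 FPKM in AdSirt4, which puts replicate 1 apart and replicate 3 inside the AdCtrl range. The summed level of the RBM genes was 569.9, 556.0 and 577.2 FPKM in AdCtrl and 637.9, 606.4 and 601.8 FPKM in AdSirt4, and these groups did not overlap. Such a sum weighs abundant genes most. RBMX averaged 111.3 FPKM in AdCtrl and 132.0 FPKM in AdSirt4, and RBM3 48.95 and 60.87 FPKM. Taken singly, 25 RBM genes had a log2 fold change above 0 and 13 below. The sum therefore does not describe the RBM genes as a family.

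The deviation of this library moved with gene length. Over all genes, the shortest 10% (up to 1.32 kb) had a median difference of 0.68 between replicate 1 and replicates 2 and 3 on the log2 scale, and the longest 10% (from 8.79 kb) had −0.74. Among members, the 31 shorter ones (1.52 to 4.2 kb) had a median of 0.31, and replicate 1 was the highest sample in 25 of them. The 30 longer ones (4.39 to 17.8 kb) had a median of −0.06, with replicate 1 highest in 11 and lowest in 12. With each library's length trend removed, replicate 1 was still above the 5 others in 39 members and below them in 10, against 32.8% and 32.0% of all genes. HNRNPA0, an A/B hnRNP with a derived length of 9.99 kb, did not follow the length trend, at 312.2 CPM in replicate 1 and 223.5 and 203.5 CPM in replicates 2 and 3. The part of length, or of the state of this library, in the members' values was not tested further.

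**Figure D3:**
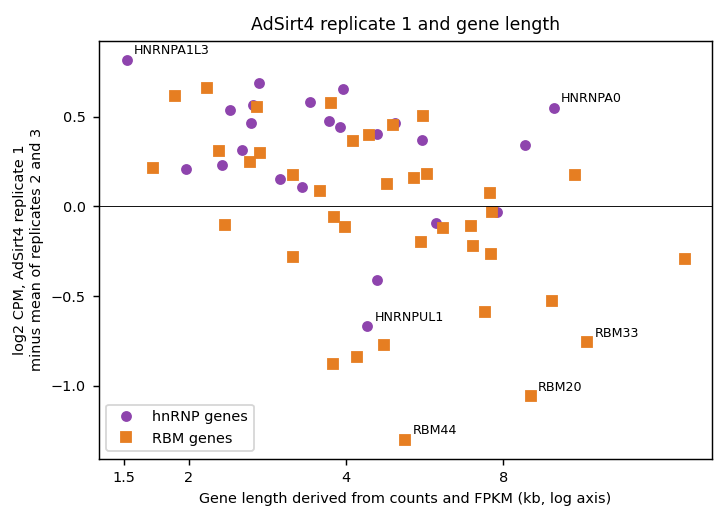
Difference in log2 CPM between AdSirt4 replicate 1 and the mean of AdSirt4 replicates 2 and 3 (vertical) against gene length in kb (log axis) for the 61 members. Most hnRNP genes lie above 0 at lengths under 5.6 kb, and RBM20 (9.04 kb) and RBM33 (11.6 kb) lie far below it.

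Ordered by role, the A/B and D hnRNPs are general packaging and splicing proteins, and all 9 were highest in AdSirt4 replicate 1. HNRNPA1 had 1191, 1260 and 1093 CPM in AdCtrl and 1904, 1283 and 1140 CPM in AdSirt4. Only replicate 1 stood out, and the other AdSirt4 samples lay at the AdCtrl level (log2 fold change 0.29, SE 0.21, and 0.03 without replicate 1). HNRNPA2B1 had 1160, 1347 and 1090 CPM in AdCtrl and 1587, 1200 and 1133 CPM in AdSirt4, with a log2 fold change of 0.12 (SE 0.17) that turned to −0.04 without replicate 1. HNRNPD, or AUF1, which binds AU-rich elements, had 309.5, 290.7 and 299.7 CPM against 475.2, 328.9 and 307.3 CPM, and its groups overlapped (log2 fold change 0.30, and 0.08 without replicate 1). No gene of this group passed a test in either fit, and without replicate 1 their log2 fold changes lay between −0.08 and 0.08. HNRNPA1 has 74 named pseudogenes in the annotation, and HNRNPA1L2 and HNRNPA1L3 are near copies of it, so the division of reads among them is uncertain.

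The F/H hnRNPs bind G-rich sequences near splice sites and poly(A) sites. HNRNPH1 had 312.6, 338.2 and 314.7 CPM in AdCtrl and 441.2, 350.7 and 360.3 CPM in AdSirt4. The groups did not overlap, and the log2 fold change was 0.26 (SE 0.13) with an adjusted p of 0.678 in edgeR's quasi-likelihood test, and 0.14 without replicate 1. HNRNPF had 503.0, 470.4 and 475.0 CPM against 569.6, 506.9 and 517.9 CPM, with a log2 fold change of 0.14 (SE 0.11) and 0.08 without replicate 1. Its lowest AdSirt4 sample was just above its highest AdCtrl sample. HNRNPH2 and HNRNPH3 overlapped between the groups.

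Members of the C, M, R and U group bind pre-mRNA or link it to the nuclear scaffold. HNRNPC had 693.0, 719.9 and 659.9 CPM in AdCtrl and 922.7, 676.4 and 651.7 CPM in AdSirt4, so 2 of its 3 AdSirt4 samples lay inside or below the AdCtrl range, and the log2 fold change went from 0.12 to −0.06 without replicate 1. HNRNPU, the scaffold attachment factor, had 751.0, 815.8 and 726.8 CPM against 838.8, 876.5 and 838.6 CPM. This gene was not among those singled out by the naming rule and is given because its 3 AdSirt4 samples lay close together above AdCtrl (log2 fold change 0.16 with and without replicate 1, adjusted p = 0.741 in edgeR's quasi-likelihood test). HNRNPUL1 had 259.1, 284.9 and 244.5 CPM against 163.9, 259.6 and 260.9 CPM, a low value confined to replicate 1 (log2 fold change −0.20, and −0.02 without it).

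In the K and L group, HNRNPK was flat, with 966.0, 958.7 and 917.1 CPM in AdCtrl and 1021, 964.8 and 932.5 CPM in AdSirt4 (log2 fold change 0.04, SE 0.11, and −0.003 without replicate 1). HNRNPLL, a paralog of HNRNPL known for regulating CD45 splicing in lymphocytes, had 51.8, 48.8 and 50.7 CPM in AdCtrl and 55.9, 42.7 and 41.9 CPM in AdSirt4. Replicate 1 was above all AdCtrl samples and replicates 2 and 3 were below all of them. Over all 6 samples the log2 fold change was −0.11 (SE 0.13, adjusted p = 0.811 in edgeR's quasi-likelihood test). Without replicate 1 it was −0.26 (SE 0.06, adjusted p = 0.0216), and HNRNPLL then passed the test.

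HNRNPUL2-BSCL2 is a readthrough transcript that joins the exons of HNRNPUL2, an HNRNPU-like protein, to those of the seipin gene BSCL2 (hg38 chromosome 11, 62690275 to 62727384, minus strand). It had 25.8, 26.5 and 20.8 CPM in AdCtrl and 10.5, 10.8 and 18.1 CPM in AdSirt4. All AdSirt4 samples were below all AdCtrl samples, and replicate 3 came closest to AdCtrl. The log2 fold change was −0.89 (SE 0.23, unadjusted p = 0.00664, adjusted p = 0.494 in edgeR's quasi-likelihood test), and −0.76 without replicate 1 (adjusted p = 0.169). Every exonic base of this transcript is shared: 2391 bases (59.8%) with HNRNPUL2 and 1610 bases (40.2%) with BSCL2, on the same strand. BSCL2 itself had 7.73, 7.27 and 9.83 CPM in AdCtrl and 16.7, 13.7 and 7.16 CPM in AdSirt4, the reverse order in replicates 1 and 2. Summed over both, the values were 33.5, 33.8 and 30.7 CPM in AdCtrl and 27.2, 24.5 and 25.3 CPM in AdSirt4. HNRNPUL2 had 144.8, 138.8 and 131.2 CPM against 141.6, 155.4 and 147.3 CPM, with overlapping groups (log2 fold change 0.10, and 0.13 without replicate 1). The sum of HNRNPUL2 and the readthrough transcript overlapped too, at 170.5, 165.4 and 152.1 CPM in AdCtrl and 152.1, 166.2 and 165.4 CPM in AdSirt4. How reads were divided among the 3 genes cannot be read from a count per gene, so the value of the readthrough transcript is uncertain.

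**Figure D4:**
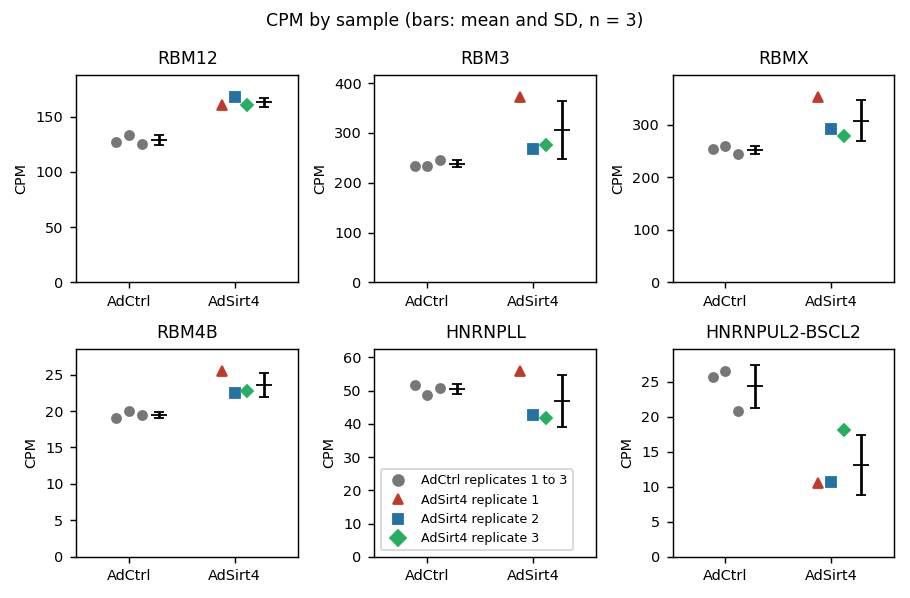
CPM by sample for 6 members, with the mean and SD of 3 samples per group beside the points. In RBM12 the 3 AdSirt4 samples lie at 160 to 168 CPM and the AdCtrl samples at 125 to 134 CPM, while in HNRNPLL AdSirt4 replicate 1 lies above AdCtrl and the others below.

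RBM12, a nuclear protein with several RNA recognition motifs, had the smallest p of all members. It had 127.5, 133.5 and 124.9 CPM in AdCtrl and 160.5, 168.0 and 160.2 CPM in AdSirt4. The groups did not overlap, and replicate 1 lay between the other AdSirt4 samples. The log2 fold change was 0.34 (SE 0.09, unadjusted p = 0.0056, adjusted p = 0.494 in edgeR's quasi-likelihood test) and 0.35 (SE 0.05, adjusted p = 0.00676) without replicate 1, where RBM12 and HNRNPLL were the 2 members called, against 6.71% of all genes. Leaving out any of the 6 samples in turn kept the value between 0.32 and 0.37. RBM12 (hg38 chromosome 20, 35648925 to 35664956, minus strand) shares 575 exonic bases, 8.58% of its own, with CPNE1, a calcium-dependent phospholipid-binding protein transcribed from the same strand. CPNE1 lay lower in all AdSirt4 samples, with 147.1, 140.8 and 147.9 CPM in AdCtrl and 125.2, 125.3 and 131.3 CPM in AdSirt4 (log2 fold change −0.19, adjusted p = 0.649 in edgeR's quasi-likelihood test, and −0.18 without replicate 1, adjusted p = 0.0600). The sum of both genes was 274.6, 274.3 and 272.8 CPM in AdCtrl and 285.6, 293.4 and 291.5 CPM in AdSirt4. The shared exons leave the division of reads between RBM12 and CPNE1 uncertain.

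Among the 17 RBM genes with a role in splicing, 13 had a log2 fold change above 0 (median 0.16), and 12 without replicate 1 (median 0.05). RBM4B, a paralog of the splicing regulator RBM4, had 19.1, 19.9 and 19.5 CPM in AdCtrl and 25.5, 22.5 and 22.8 CPM in AdSirt4. The groups did not overlap, and the log2 fold change was 0.27 (SE 0.10, unadjusted p = 0.0234, adjusted p = 0.586 in edgeR's quasi-likelihood test) and 0.21 without replicate 1 (adjusted p = 0.0855). RBM4B shares 590 exonic bases with RBM4 on the opposite strand and resembles it in sequence. RBM4 itself overlapped between the groups (log2 fold change 0.08, and 0.001 without replicate 1). The sum of RBM4 and RBM4B overlapped too, at 94.2, 94.1 and 88.8 CPM in AdCtrl and 110.3, 100.7 and 90.8 CPM in AdSirt4. RBMX, which acts in splicing and in sister chromatid cohesion, had 254.3, 259.6 and 244.6 CPM against 353.0, 292.7 and 277.9 CPM. All AdSirt4 samples were above all AdCtrl samples, with a log2 fold change of 0.28 (SE 0.12, adjusted p = 0.628 in edgeR's quasi-likelihood test) and 0.17 without replicate 1 (adjusted p = 0.083). Reads of RBMX may be divided with its retrocopy RBMXL1.

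RBM5, a regulator of splicing linked to apoptosis, had 57.7, 65.3 and 64.8 CPM in AdCtrl and 74.6, 70.0 and 70.5 CPM in AdSirt4 (log2 fold change 0.20, SE 0.09, and 0.16 without replicate 1). RBM48, a component of the minor spliceosome, had 14.1, 14.8 and 15.7 CPM against 21.6, 16.0 and 16.9 CPM (log2 fold change 0.29, SE 0.14, and 0.14 without replicate 1). In both genes the groups did not overlap, neither passed an adjusted p, and replicate 1 was the highest sample. RBM8A, or Y14, of the exon junction complex, had 126.2, 117.3 and 119.5 CPM against 185.8, 136.9 and 125.5 CPM. Its groups overlapped through replicate 3, and the log2 fold change was 0.30 and 0.11 without replicate 1. RBM17, or SPF45, a U2AF homology motif protein that acts at the 3′ splice site, had 62.2, 66.9 and 60.9 CPM in AdCtrl and 98.0, 66.0 and 65.6 CPM in AdSirt4, with a log2 fold change of 0.27 (SE 0.17) and 0.05 without replicate 1. RBM39, a U2AF2-related splicing factor, had 254.5, 251.3 and 256.3 CPM against 288.0, 252.5 and 263.7 CPM (log2 fold change 0.08, and 0.02 without replicate 1). In both RBM17 and RBM39, replicate 2 of AdSirt4 lay inside the AdCtrl range, and in RBM17 replicate 3 did as well. U2AF2 itself, which is no member, had 211.0, 214.2 and 183.2 CPM against 207.6, 221.0 and 199.9 CPM.

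The RBM proteins of nuclear RNA decay, m6A deposition and export gave 3 log2 fold changes above 0 and 3 below. RBM15 and RBM15B recruit the m6A methyltransferase to its targets. RBM15 had 35.1, 32.3 and 35.6 CPM in AdCtrl and 19.1, 33.5 and 36.6 CPM in AdSirt4, a low value in replicate 1 alone (log2 fold change −0.20, SE 0.23, and 0.02 without it). RBM15B had 77.7, 77.7 and 80.2 CPM against 73.8, 89.9 and 87.6 CPM, so replicate 1 lay below AdCtrl and the other AdSirt4 samples above it (0.09, and 0.17 without replicate 1, adjusted p = 0.0575 in edgeR's quasi-likelihood test). RBM33, which has been linked to mRNA export and m6A demethylation, had 83.8, 86.0 and 94.5 CPM against 51.8, 86.4 and 88.9 CPM, and its log2 fold change of −0.22 shrank to −0.01 without replicate 1.

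The ribosome assembly factors RBM19, RBM28 and RBM34 overlapped between the groups. RBM34 had 40.2, 39.6 and 35.0 CPM in AdCtrl and 62.9, 39.9 and 39.7 CPM in AdSirt4, again high in replicate 1 alone (log2 fold change 0.31, SE 0.19, and 0.05 without it). RBM34 shares 1603 exonic bases, 51.5% of its own, with ARID4B in the annotation.

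RBM3, a cold-inducible protein that binds mRNA and promotes translation, had the largest log2 fold change above 0 of the 61 members. It had 234.5, 234.2 and 246.4 CPM in AdCtrl and 372.6, 267.8 and 276.2 CPM in AdSirt4. The groups did not overlap. The log2 fold change was 0.36 (SE 0.15, unadjusted p = 0.0461, adjusted p = 0.623 in edgeR's quasi-likelihood test) and 0.19 (SE 0.05, adjusted p = 0.0529) without replicate 1. With the length trend also removed, an alternative added after the data were seen, RBM3 passed at an adjusted p of 0.0387 and RBMX at 0.0223, and RBM12 and HNRNPLL passed as before, which made 4 members against 7.55% of all genes. CIRBP, the cold-inducible relative of RBM3, is no member and was looked up after these values were seen. It had 56.8, 57.2 and 55.3 CPM in AdCtrl and 94.5, 64.8 and 59.4 CPM in AdSirt4, and its groups did not overlap. The log2 fold change was 0.37 (SE 0.18, adjusted p = 0.678 in edgeR's quasi-likelihood test) and 0.13 without replicate 1 (adjusted p = 0.170). In the added fit, with the length trend also removed, CIRBP passed too (0.18, adjusted p = 0.0471 in the same test).

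RBM12B, a relative of RBM12, had 109.2, 113.0 and 118.8 CPM in AdCtrl and 72.7, 100.2 and 109.5 CPM in AdSirt4. Its groups overlapped narrowly, through replicate 3, and the log2 fold change of −0.27 (SE 0.16) was −0.12 without replicate 1. It was therefore not shown to share the difference of RBM12.

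Counted over all members, the AdSirt4 samples were all above the AdCtrl samples in 10 members (HNRNPF, HNRNPH1, HNRNPU, RBM3, RBM4B, RBM5, RBM12, RBM22, RBM48 and RBMX), against 9.66% of all genes. They were all below in 1 member, HNRNPUL2-BSCL2, against 9.77%. Replicate 1 lay outside the range of the 5 others in all but 2 of these 11 members, RBM12 and HNRNPU. Without replicate 1, 12 members had an unadjusted p under 0.05, 9 of them higher and 3 lower in AdSirt4, against 24.3% of all genes, and 12 with the length trend removed too, again against 24.3%. The 36 members that the naming rule left out, HNRNPU aside, included the 4 genes under 1 CPM and 32 others. Those 32 had log2 fold changes of −0.28 to 0.28, with 24 above 0 and the smallest adjusted p at 0.711 in edgeR's quasi-likelihood test. Without replicate 1 their values lay between −0.21 and 0.22, with 16 of 32 above 0.

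**Figure D5:**
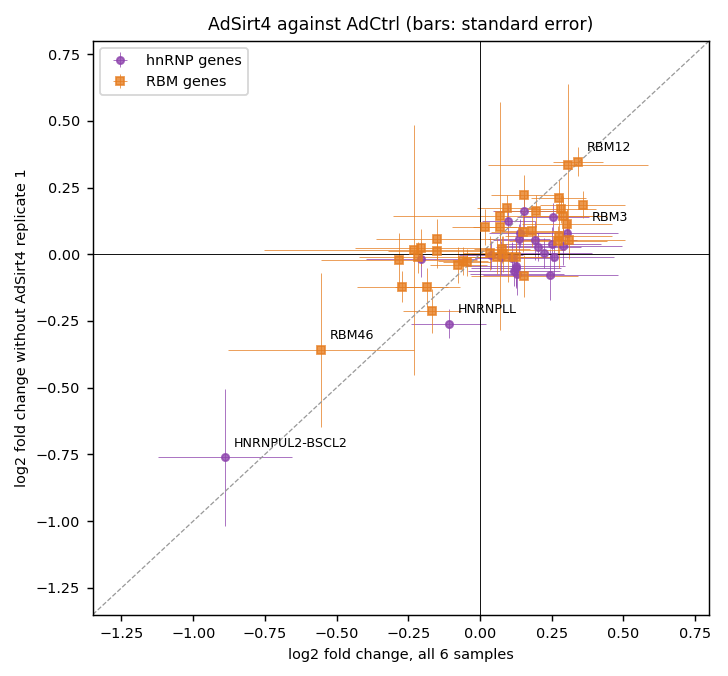
log2 fold change of AdSirt4 over AdCtrl with all 6 samples (horizontal) and without AdSirt4 replicate 1 (vertical) for the 61 members, with standard errors. RBM12 stays at 0.34 and 0.35 near the dashed line of equal values, while most hnRNP genes drop to around 0 on the vertical axis.

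Other genes of these pathways were read from lists. Of 52 RNA-binding genes related to the members, such as PTBP and PCBP family genes, 49 were tested and none passed an adjusted p of 0.05. At an unadjusted p under 0.05 there were 5, against 7.93% of all genes. Of these, 3 were higher in AdSirt4, SFPQ and TAF15 among them (all genes 4.43%), and 2, ESRP1 and NOVA1, were lower (all genes 3.5%). With the replicate block there were again 5, against 7.2% of all genes. Of the 5, 4 were higher (723 of 17720 genes) and 1 was lower (553 of 17720 genes). The log2 fold changes were above 0 in 35 of 49, against 53.4% of all genes, with a median of 0.09. SFPQ, a paraspeckle and splicing protein, had 339.2, 397.9 and 323.4 CPM in AdCtrl and 526.2, 486.4 and 465.7 CPM in AdSirt4. Its groups were far apart, with a log2 fold change of 0.48 (SE 0.12, unadjusted p = 0.00586, adjusted p = 0.494 in edgeR's quasi-likelihood test) and 0.43 without replicate 1, where it passed (adjusted p = 0.0167) as the 1 related gene called, against 6.71% of all genes. TAF15, an RNA-binding factor associated with TFIID, had 69.6, 87.9 and 65.4 CPM against 114.7, 97.1 and 104.2 CPM (log2 fold change 0.50, SE 0.14, and 0.43 without replicate 1). ESRP1, an epithelial splicing regulator, had 2.63, 2.78 and 2.63 CPM against 1.85, 2.00 and 2.06 CPM (log2 fold change −0.44, SE 0.15, and −0.41 without replicate 1).

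Of 16 partner genes that form complexes with RBM proteins, 8 were above and 8 below 0, and none passed an adjusted p. Without replicate 1, 2 passed, against 6.71% of all genes. WTAP, the adaptor of the m6A writer that RBM15 and RBM15B join, had 120.0, 118.9 and 123.1 CPM in AdCtrl and 201.3, 133.8 and 149.4 CPM in AdSirt4 (log2 fold change 0.42, SE 0.16, and 0.23 without replicate 1, adjusted p = 0.0411 in edgeR's quasi-likelihood test). ZFC3H1, a scaffold of nuclear exosome targeting with which RBM26 and RBM27 have been linked, had 58.0, 59.6 and 65.4 CPM against 35.4, 48.2 and 51.5 CPM (−0.44, SE 0.15, and −0.30 without replicate 1, adjusted p = 0.0208). EIF4A3, the helicase of the exon junction complex that holds RBM8A, had 72.6, 69.0 and 69.9 CPM against 115.5, 79.9 and 78.0 CPM (0.37, SE 0.16, and 0.16 without replicate 1). These 3 were picked by their small p. In each the groups did not overlap, and replicate 1 was the most extreme sample. Over all 16 partner genes, all AdSirt4 samples were above AdCtrl in 3, against 9.66% of all genes. They were all below in 1, against 9.77%.

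The promoters of the members were read as well, since genes that every cell uses often begin in CG-rich sequence. RefSeq promoters of GRCh38.p14 (250 bases before to 50 after the start) were matched for 55 members and 13581 of the tested genes. Median GC content was 63.7% in the members and 64.7% over all, and the median number of CG pairs was 27 and 25. The letters CCGGAAG, the core of an ETS motif, were found on either strand in 11 members (20.0%, against 17.1% of all promoters). The E-box CACGTG was found in 10 members (18.2%, against 9.72%) and TATAAA in 6 (10.9%, against 6.45%). A match describes the letters and is no evidence of binding.
Named members that hold the ETS core are shown so that its place can be compared, as 30 bases in the direction of the gene with the core in capitals (CTTCCGG is the core on the other strand), from the minus strand of GRCh38.p14.
RBM12, chr20:35664991-35665020: aaacccagtaaCTTCCGGgagatcgcccga
HNRNPLL, chr2:38602933-38602962: aggagggaagaCCGGAAGccacggttgcgt
RBM8A, chr1:145927586-145927615: ccacagaaacaCTTCCGGtatctttccgca
RBM34, chr1:235161260-235161289: gtgcccggaacCCGGAAGtgcgagctggcg
HNRNPD, chr4:82374156-82374185: agctcacgacaCTTCCGGttccttttaaag
HNRNPF, chr10:43408956-43408985: gagcaggagggCTTCCGGcaaagccgcgtg
RBM12 and HNRNPLL, the 2 members that passed without replicate 1, differed in opposite directions and both hold the core, 109 and 23 bases before the RefSeq start. The share of members with the core (20.0%) was near that of all promoters (17.1%). A link between the core and the differences of these 2 genes was not tested.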

How the data were processed

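Poly-A RNA of 6 samples of HK2 cells was sequenced by the study. The submitters' processing notes name fastp 0.21.0, HISAT2 2.1.0, StringTie 2.1.5 and DESeq2 1.30.1 with hg38. The roles and settings of these tools, and whether strand was used in counting, are not given in the sources used here. The deposited counts are whole numbers per gene without normalization. The second table was deposited by the authors without a named unit and was read as FPKM from its values. Gene length was derived from both tables.

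Counts were tested with edgeR 4.0.16 (R 4.3.3): filterByExpr at its minimum count of 10, TMM scaling, robust quasi-likelihood test, Benjamini-Hochberg adjustment over the 17720 genes, threshold 0.05. A count of 0 allows up to 3 counts, or 0.035 to 0.0722 CPM (counting error only). Single values were compared by a two-sided exact permutation test. Alternatives were DESeq2 1.42.0, limma 3.58.1 (voom with quality weights, and log2(FPKM + 1) or log2(FPKM + 0.1)), other filters and scaling, a replicate block, removal of each library's length trend (lowess, span 0.3), and leaving out each sample. Scripts were tested on simulated data. Same-numbered samples deviated together (r of 0.178, 0.159 and 0.176 across genes, other pairs −0.188 to 0.0298). The members' counts of calls in edgeR over all 6 samples are therefore also given with the replicate block. The fits reported are otherwise unpaired.

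Genes named are the 8 members with the smallest p, the 5 highest and 5 lowest log2 fold changes at a mean of at least 10 CPM, the 5 with the smallest p without AdSirt4 replicate 1, the 5 highest in FPKM, RBM3, RBM17 and RBM39, and up to 3 of each other list. The values of 1 related gene are not reported here. The members, lists and this rule were chosen with earlier results of these data known. Loci and exon overlap come from GENCODE v29, where 60 members were matched by symbol. In it, 24 members share exonic bases with another protein-coding gene and 20 have named pseudogenes.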

Additional observations from a re-analysis of the deposited data

How the results depend on the processing

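The 24 named members were refitted under 19 alternatives each. Of 456 values, 435 kept their direction and their side of the threshold, 12 newly passed an adjusted p of 0.05 and 9 changed sign. Members that passed numbered 0 with all 6 samples (all genes: 0.0113%), 2 by DESeq2 (1.2%) and 4 by limma voom with quality weights (9.51%). They numbered 4 without AdSirt4 replicate 1 and with the length trend removed (7.55%), a fit added after the data were seen. Leaving out 1 sample gave 0 to 2, the 2 without AdSirt4 replicate 1 (6.71%). Members at an unadjusted p under 0.05 numbered 4 (all genes: 7.93%), 10 with the length trend removed (13.9%), 15 by voom (27.3%) and 12 in the added fit (24.3%). Leaving out 1 sample gave 2 to 12. There were 2 without any one AdCtrl sample, where 668 of 18050, 839 of 18232 and 752 of 18280 genes were under 0.05. Without AdSirt4 replicate 1 there were 12 (24.3%). There were 5 without replicate 2 (1064 of 17962 genes) and 7 without replicate 3 (1501 of 17976 genes). The replicate block gave 2 (all genes: 7.2%), or 12 together with the length trend removed (13.9%), and changed no adjusted call. Leaving out 1 sample gave 36 to 45 members above 0, medians of 0.018 to 0.166 and 13 to 22 members whose groups did not overlap (11 with all samples). Over all genes this share was 19.4% with all samples and 25.3% to 41.8% with 1 left out, since fewer samples overlap less. AdSirt4 replicate 1 set the extremes of 36 and 0.018. The members' median of 0.124 was 0.0345 by voom (all genes: 0.000186) and 0.0720 on log2(FPKM + 1) (all genes: −0.00949). Related genes that passed numbered 1 by DESeq2 (all genes: 1.2%), 2 by voom (9.51%) and 3 in the added fit (7.55%). Related genes that passed numbered 1 without AdSirt4 replicate 1 (6.71%) and 0 when any other sample was left out. Their median, 0.0855, was 0.0422 on log2(FPKM + 1), with the replicate block too, 0.0520 with a pseudocount of 0.1, 0.0510 at a mean FPKM of at least 1, 0.0541 in the added fit and 0.0568 to 0.0968 when leaving out 1 sample. HNRNPA2B1 and HNRNPC turned to −0.0124 and −0.0376 by voom, −0.0382 and −0.0532 in the added fit, and RBM15 to 0.0317 in the added fit. Leaving out 1 sample gave −0.0445 to 0.216 for HNRNPA2B1, −0.0621 to 0.211 for HNRNPC, −0.00266 to 0.0681 for HNRNPK and −0.380 to 0.0241 for RBM15, each changing sign without AdSirt4 replicate 1. The cause was not tested. With 3 samples a group, 1 of them apart, small differences were not detectable.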
